A study of Rattus norvegicus with 3 samples.

Results

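The genomic loci of Dym, Myh10, Pftk1 and Prep were examined in liver DNA methylation data from newborn rats. They are genes that the study named as lower in MLP livers on its expression arrays and as neighbours of a region more methylated in MLP than in C, and the arrays were not analysed here. Regions were taken where any base lay within chr18:71700000-72300000 (Dym), chr10:55150000-55750000 (Myh10), chr4:25300000-26200000 (Pftk1) or chr20:48700000-49300000 (Prep) on the assembly rn4. The loci held 163 of the 95306 regions in the 3 deposited lists. Of these, 65 of 35998 were in the MLP vs. C list, of regions that were higher in MLP, 48 of 33730 in MLP vs. MLP-F, again higher in MLP, and 50 of 25578 in MLP-F vs. C, higher in MLP-F. The livers came from male Wistar pups aged 1 day, and the groups differed in the diet of the dam during pregnancy. Group C had the control diet, with a normal protein content, MLP a low protein diet, and MLP-F a low protein diet with added folic acid. There was no group with the control diet and added folic acid. DNA of each group was pooled into 1 library, from 6 animals by the sample labels, while the study's methods give another number, and by those methods each pool came from 1 litter.

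DNA methylation in mammals is found mostly on cytosines of CpG dinucleotides. It is kept through cell division by a maintenance methyltransferase, and the bodies of genes, introns included, are commonly methylated. In the assay used, sonicated DNA was captured by a protein with a methyl-CpG binding domain and sequenced, so that reads gather where methylated CpGs are dense. The 4 genes have different roles. Dymeclin, encoded by Dym, is a protein of the Golgi apparatus, and its loss in humans causes a skeletal dysplasia. Myh10 encodes the heavy chain of non-muscle myosin IIB, a motor of cell shape and cytokinesis. Pftk1, now named Cdk14, encodes a cyclin-dependent kinase that works with cyclin Y and acts in Wnt signalling at the cell membrane. Prep encodes prolyl endopeptidase, a serine peptidase that cuts short peptides after proline. The liver of a newborn rat also holds blood-forming cells. In pooled tissue, a different mixture of cell types and a different methylation within a cell type cannot be told apart.

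Beside its position, each region carried a score, 10 times the −log10 of the p given by the peak caller MACS for the first library against the second. The lowest score in the lists was 50, at the authors' cut-off for p. The study then kept regions by their false discovery rate. It reported none for MLP-F vs. C, and far fewer for MLP vs. MLP-F than for MLP vs. C. The MLP-F vs. C regions described here thus did not pass the study's threshold. For the other regions, except those that the study annotated to the genes, this was not determined. With 1 library per group there is no replicate check, and no difference between diets was tested. The loci were chosen by values of these data, since the study had annotated an MLP vs. C region that passed its threshold to each gene, and by its array values, so scores and counts are a description. The 3 lists share libraries, so a region found in a pair of lists was not found independently. Scores also depend on the depth of both libraries, and the study's quality table gives the MLP library the most reads and the C library the fewest. The part of depth in the results was not tested. A region missing from a list may still differ between its libraries, and regions lower in MLP than in C, or lower in the first library of another pair, were not analysed here. Gene structures and sequence on rn4 were not used here, so a place within a gene is given only as the study annotated it, and no bases are shown.

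The loci held 2.41 MLP vs. C regions per 100 kb, against 1.29 over all placed chromosomes. For MLP vs. MLP-F the density was 1.78 against 1.21, and for MLP-F vs. C 1.85 against 0.908. The background counted chromosomes at full length, which is more than the effective genome size the study set for MACS. The windows were set around genes chosen for a listed MLP vs. C region. The densities are thus not a like comparison. Dym had the densest MLP vs. C regions, with 17 in 600 kb, and Prep had 16 in 600 kb. Pftk1 had 23 in its longer window of 900 kb. The sparsest locus was Myh10, with 9 in 600 kb, or 1.5 per 100 kb. MLP vs. C scores had a median of 81.7 over the loci and 77.4 over the whole list. A score of 100 or more was reached by 23 of the 65 regions (35.4%), against 31.1% of the list. In MLP vs. MLP-F the share was 19 of 48 (39.6%, against 36.8%), and in MLP-F vs. C 11 of 50 (22.0%, against 19.1%).

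**Figure D1:**
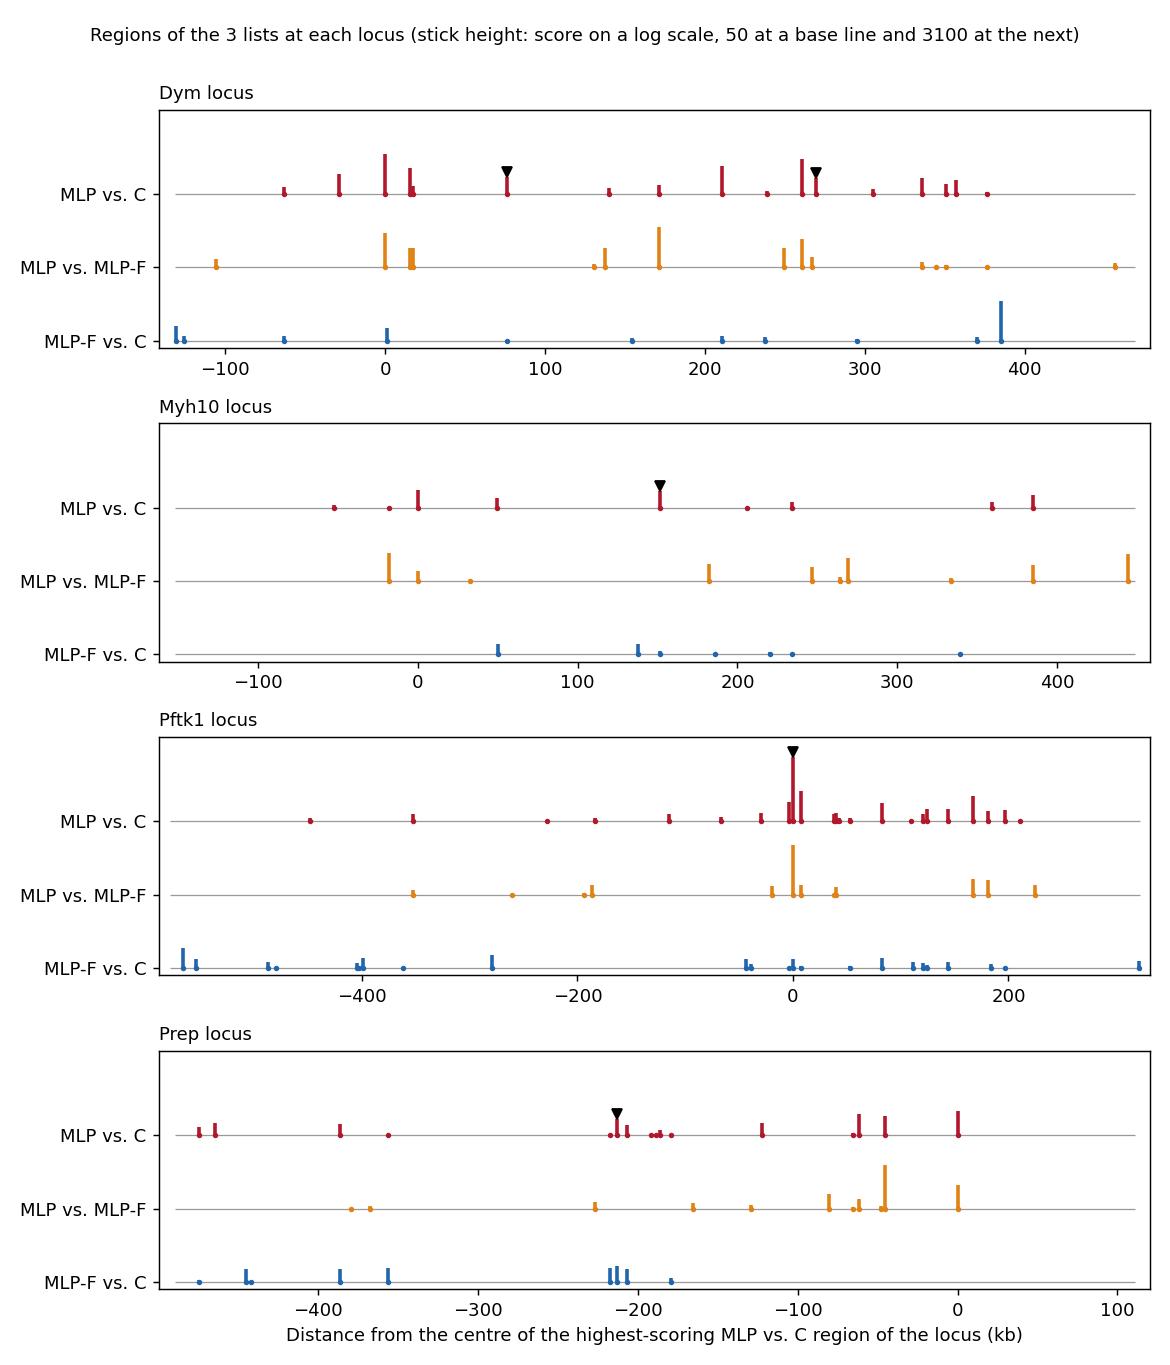
Regions of the 3 lists at the loci of Dym, Myh10, Pftk1 and Prep, by distance (kb) from the centre of the highest-scoring MLP vs. C region of each locus; dots mark regions, stick height is the score on a log scale, and black triangles mark the 5 regions that the study annotated to the genes. At Pftk1 the marked region is the highest of its locus (score 1896), and at the other loci higher MLP vs. C regions stand beside the marked ones.

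By locus, the median MLP vs. C score was highest at Dym (109, range 56.8 to 461) and lowest at Myh10 (70.0, range 50.6 to 135). Pftk1 had a median of 78.1 with the widest range, 50.5 to 1896, and Prep a median of 83.3, with scores from 50.2 to 197. The order of the loci was another in the other lists. In MLP vs. MLP-F the highest median was that of Myh10 (115, range 51.1 to 246), and in MLP-F vs. C that of Prep (101, range 51.3 to 122). The ranges of the 4 loci overlapped in each of the 3 lists.

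**Figure D2:**
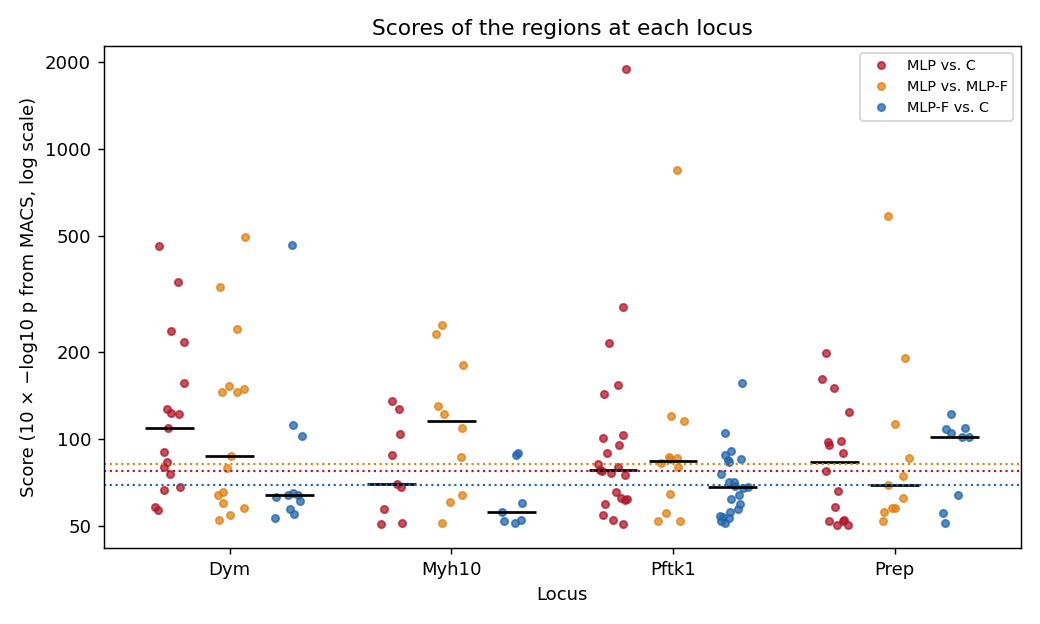
MACS score of each region (−log10 p times 10, log scale) by locus and list; each point is a region, black lines are medians of the locus, and dotted lines are medians of the whole lists in the same colours. The highest point is the Pftk1 region with a score of 1896 in MLP vs. C, and at Prep 6 of 9 MLP-F vs. C regions score 100 or more, against 19.1% of the whole list.

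Of the 65 MLP vs. C regions, 22 (33.8%, 95% Wilson interval 23.5 to 46.0%) overlapped an MLP vs. MLP-F region by at least 1 bp, against 39.4% of the whole list. A further comparison found 21 (32.3%, 22.2 to 44.4%) that overlapped an MLP-F vs. C region, against 22.6%. In both other lists were 2 of the 65 regions (3.08%, against 1.11%), and in neither 24 (36.9%, against 39.1%). The intervals cover counting error only, and those of all 4 shares include the share of the whole list. Read from the other lists, 22 of 48 MLP vs. MLP-F regions (45.8%, against 42.1%) overlapped an MLP vs. C region and 2 (4.17%, against 1.27%) an MLP-F vs. C region, and these 2 were in both (against 1.18%). Of the 50 MLP-F vs. C regions, 21 (42.0%, against 31.8%) overlapped MLP vs. C regions, and 2 (4%, against 1.67%) MLP vs. MLP-F regions, again those in both (against 1.58%). The loci differed in which list they shared most. Dym shared 8 of 17 regions with MLP vs. MLP-F and 3 with MLP-F vs. C, and Prep 4 of 16 and 7. Myh10 shared 3 and 2 of 9, and Pftk1 7 and 9 of 23. The intervals of the 4 loci overlapped for each of these shares.

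**Figure D3:**
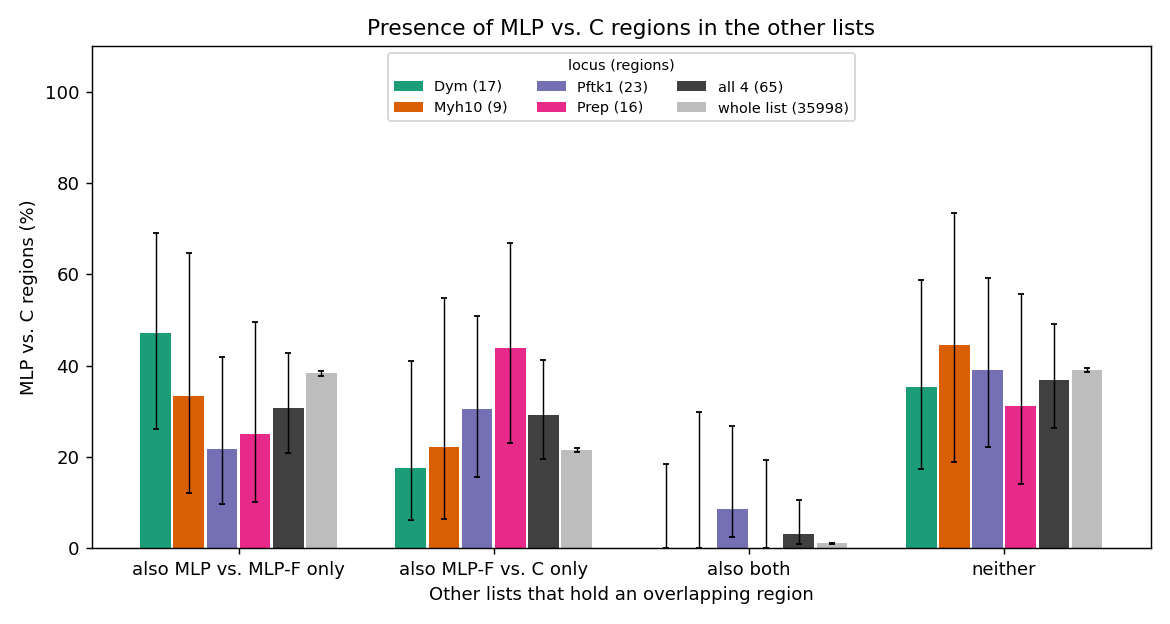
Percent of MLP vs. C regions that overlap a region of MLP vs. MLP-F only, of MLP-F vs. C only, of both or of neither, for each locus, the 4 loci together and the whole list; error bars show 95% Wilson intervals and numbers of regions are in the legend. Dym has the highest share for MLP vs. MLP-F only (47.1%) and Prep for MLP-F vs. C only (43.8%), and the intervals of the loci overlap.

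At Pftk1, the region at chr4:25877797-25878610 had a score of 1896 in MLP vs. C, at place 21 of 35998. It is the region that the study annotated to an intron of Pftk1, and the annotation names tandem repeats and a TG repeat at it. The same stretch scored 846 in MLP vs. MLP-F, and an MLP-F vs. C region over it (chr4:25877829-25878621) scored 83.1. It was thus listed in all 3 comparisons, with MLP above MLP-F and MLP-F above C. The second region listed in all 3 lay 7.03 kb further along, at chr4:25885637-25886019. Its scores were 286 in MLP vs. C, 86.2 in MLP vs. MLP-F and 55.8 in MLP-F vs. C. On the other side, chr4:25873970-25874784 scored 154 in MLP vs. C and 52.1 in MLP-F vs. C, and was not listed against MLP-F. In these 3 neighbours C was below both low protein groups. Both regions in all 3 lists were at Pftk1, and at 1.11% of the whole MLP vs. C list a count of 0 at the other loci is near the background.

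Further along the Pftk1 locus, more regions were listed as higher than C in both low protein groups. Regions in no other list, such as chr4:25987036-25987609 (50.5 in MLP vs. C), lay among them. At the whole locus 9 of 23 MLP vs. C regions overlapped an MLP-F vs. C region (39.1%, 95% Wilson interval 22.2 to 59.2%). The interval includes the 22.6% of the whole list. Among these regions was chr4:25960904-25961526, with scores of 142 in MLP vs. C and 90.5 in MLP-F vs. C. The regions at chr4:25998597-25999152, chr4:26002657-26003291 and chr4:26021403-26022084 scored 78.1, 103 and 100.4 in MLP vs. C. Their partners in MLP-F vs. C scored 67.7, 59.4 and 70.9. Of the same kind were chr4:25930627-25931660, with 62.5 in MLP vs. C and 56.95 in MLP-F vs. C, and chr4:26074055-26075116, with 94.99 and 53.4. Between and beside them were regions listed against both C and MLP-F, where MLP stood above both other libraries. At chr4:26045495-26045966 the score was 214 against C and 119 against MLP-F, and at chr4:26058268-26059413 it was 89.1 and 115. The latter was the single Pftk1 region with a higher score against MLP-F than against C. At chr4:25917500-25918196 both scores were 79.8, equal to the last digit deposited. Close to it, chr4:25915728-25916225 scored 75.2 against C and 52.0 against MLP-F. The first part of the window, up to chr4:25848502-25849108, held 7 MLP vs. C regions with scores between 52.5 and 81.7, of which 1 was also listed against MLP-F, where the share of the whole list was 39.4%. That region, chr4:25524892-25525743, scored 77.1 against C and 64.2 against MLP-F. In this first part MLP-F vs. C listed 11 regions, the highest with 156 at chr4:25311622-25312856. None of the 11 overlapped an MLP vs. C region, and over the whole list 31.8% did and 68.1% were in no other list. The stretch was set off after the values were seen. It ends before the first MLP-F vs. C region of the locus that overlaps an MLP vs. C region. The absence of overlap in it therefore follows from where it was cut.

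At Dym, 2 regions were annotated by the study to introns, and neither was in the MLP vs. MLP-F list. That at chr18:71907489-71908124 scored 127 in MLP vs. C, at place 6787, and the MLP-F vs. C region that overlapped it scored 53.0. That at chr18:72100377-72100703 scored 123, at place 7310, and was in no other list, with the nearest MLP vs. MLP-F region 1795 bases away. At the same locus 5 regions scored higher than both. The highest, chr18:71830885-71831729, scored 461 against C and 335 against MLP-F. Just beyond its end, 89 bases away, began an MLP-F vs. C region that scored 102, so that neighbouring stretches were listed for different pairs of libraries. The next, chr18:72091184-72092486, scored 349 and 240, and chr18:71846500-71847130 scored 215 and 145. In these 3 regions MLP stood above both other libraries, with the larger score against C.

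A different balance was seen at chr18:72002390-72002808, which scored 83.3 against C and 496 against MLP-F, the highest MLP vs. MLP-F score of the locus. The region at chr18:71848531-71849050 also scored higher against MLP-F, with 145 against 79.7 for C. Towards the end of the locus, chr18:72166971-72167287, chr18:72181214-72182481 and chr18:72207341-72207975 scored 122, 89.6 and 56.8 against C. Against MLP-F they scored 65.5, 57.5 and 54.3. The region at chr18:72041416-72042278 scored 236 against C without being listed against MLP-F, and MLP-F vs. C gave 63.6 over it. Another of this kind, chr18:71767512-71768159, had scores of 75.4 in MLP vs. C and 65.1 in MLP-F vs. C. At chr18:72069795-72070562 a region with 57.9 in MLP vs. C lay 521 bases from an MLP-F vs. C region with 62.8, without overlap. The highest MLP-F vs. C score of the 4 loci, 465, was also at Dym, at chr18:72216093-72216840. It overlapped no region of either MLP list, and the nearest MLP vs. C region, the one that ends at 72207975, lay 8117 bases away.

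At Myh10, the region annotated to an intron by the study lay at chr10:55452836-55453260 and scored 127 in MLP vs. C, at place 6848. An MLP-F vs. C region inside it (chr10:55452847-55453239) scored 60.1, and no MLP vs. MLP-F region lay within 30580 bases. The region at chr10:55535447-55536125 was listed in the same manner, with 68.1 in MLP vs. C and 51.2 in MLP-F vs. C. Both were above C in either low protein group. The highest MLP vs. C region of the locus, chr10:55301531-55301930, scored 135 against C and 86.2 against MLP-F. At chr10:55283461-55284261 the score against C was 51.3, close to the lowest in the list, and that against MLP-F was 246, the highest of the locus. The region at chr10:55685988-55686578 scored 104 and 122. At chr10:55351165-55351570 a region with 87.9 in MLP vs. C ended 230 bases before an MLP-F vs. C region with 87.7, without overlap. The highest MLP-F vs. C score of the locus, 89.4, was at chr10:55438967-55440119, in no other list. Of the 10 MLP vs. MLP-F regions at Myh10, 7 were in no other list (70.0%, 95% Wilson interval 39.7 to 89.2%), and the interval includes the 57.8% of the whole list. Among them were chr10:55745664-55746698 (score 229) and chr10:55570419-55571397 (180).

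At Prep, regions shared with the MLP-F vs. C list and regions shared with the MLP vs. MLP-F list lay in separate parts of the window. All 7 that were above C in both MLP and MLP-F lay between 48714666 and 49010600 on chromosome 20. The 4 in which MLP was above both C and MLP-F lay between 49123665 and 49189706. No MLP-F vs. C region was listed in the window after 49010744. The split was seen after the values were known and was not tested.

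In the first part of the Prep locus is chr20:48975577-48976961, which scored 124 in MLP vs. C, at place 7183. It is the region that the study annotated as upstream of Prep. Its second part was overlapped by chr20:48976243-48976972, which scored 122 in MLP-F vs. C. Beside it, chr20:48971842-48972758 scored 50.2 in MLP vs. C and its partner in MLP-F vs. C 109. For chr20:48981670-48983127 the scores were 89.0 and 101. At chr20:48832872-48833661 the scores were 51.8 and 108, and at chr20:48802496-48803310 they were 95.3 and 105. The region at chr20:49010162-49010600 had 50.2 and 63.7. In these 5 the score against C was higher for MLP-F than for MLP. At chr20:48714666-48715713, as at the annotated region, the score was higher for MLP, with 77.6 against 55.2. None of the 7 was in the MLP vs. MLP-F list. Over the whole list 8144 MLP vs. C regions overlapped an MLP-F vs. C region, and 399 of them were also in MLP vs. MLP-F. The absence among the 7 is thus near the background.

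In the second part of the Prep locus, chr20:49189000-49189706 scored 197 against C, the highest there, and 189 against MLP-F. The region at chr20:49143624-49144903 scored 150.0 against C and 586 against MLP-F, the highest MLP vs. MLP-F score of the locus. The other regions of this kind were chr20:49127426-49127938, with 161 and 85.7, and chr20:49123665-49124354, with 57.9 and 55.9. In 3 of the 4 the score against C was the higher.

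Over the 4 loci, 22 pairs of overlapping regions joined MLP vs. C with MLP vs. MLP-F, and all 22 had the same start and end in both lists. The score against C was higher in 15 of them and that against MLP-F in 6, with 1 equal. Over the whole lists all 14194 such pairs had the same start and end, and the score against MLP-F was higher in 48.8%. The 21 pairs that joined MLP vs. C with MLP-F vs. C differed in their ends in each case. An overlap thus meant the same stretch between the MLP lists, and stretches with different ends between MLP vs. C and MLP-F vs. C. The same held over the whole lists, so it is not particular to the loci. Both MLP lists have MLP as their first library, and MLP-F vs. C has MLP-F. The MLP vs. C score was the higher in 16 of these 21 pairs, which include all 14 at Dym, Myh10 and Pftk1. The MLP-F vs. C score was the higher in 5, all at Prep, against 40.7% of 8175 pairs over the whole lists. The scores of a pair come from comparisons with a library in common and at different depths, so which is higher does not give the order of methylation.

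**Figure D4:**
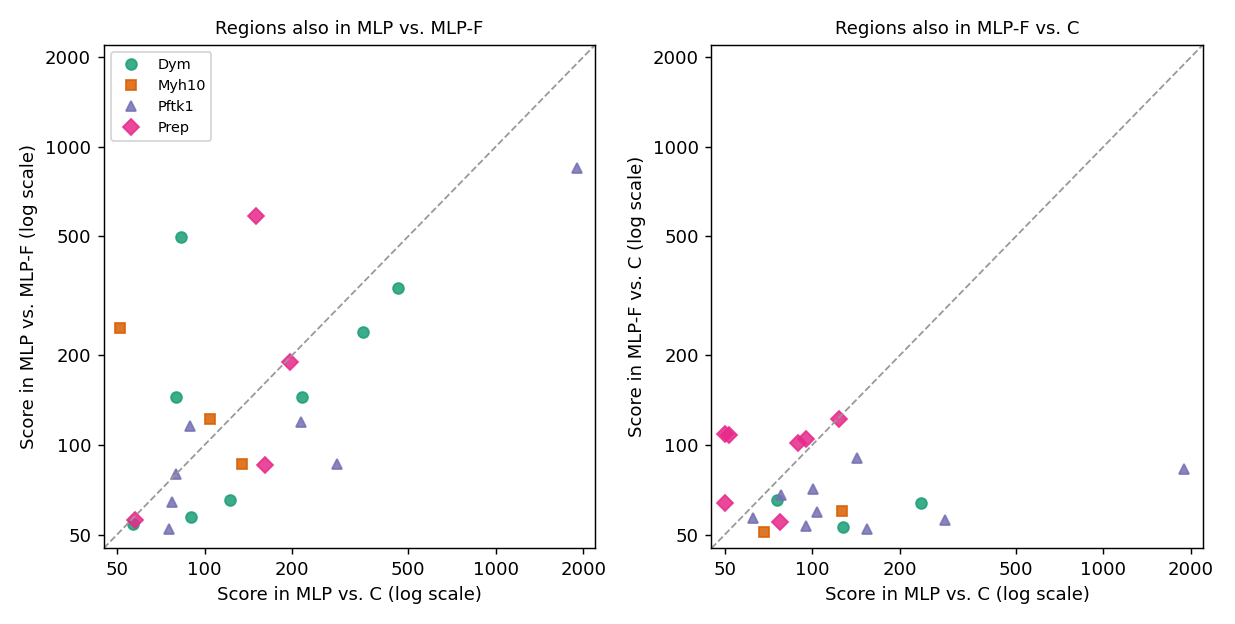
Scores of the MLP vs. C regions at the 4 loci against the score of the overlapping region in MLP vs. MLP-F (left, 22 pairs) or MLP-F vs. C (right, 21 pairs), both axes on log scales, with the line of equal scores dashed; points are regions, with colour and shape by locus. On the right, 5 Prep regions lie above the line and the regions of the other loci lie below it.

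In a single list were 24 MLP vs. C regions, 26 of 48 MLP vs. MLP-F regions (54.2%, against 57.8% of the list) and 29 of 50 MLP-F vs. C regions (58.0%, against 68.1%). The MLP vs. C regions in no other list had a median score of 65.6, below those shared with MLP vs. MLP-F only (96.8) and with MLP-F vs. C only (94.99). The whole list had the same order, with 66.2, 90.6 and 85.7. The highest MLP vs. C score among the 24 was that of chr18:71802410-71803034 at Dym, 156. Among the 7 MLP vs. MLP-F regions of Myh10 in no other list, 4 scored 100 or more. These 4 were the 2 named with the locus and those at chr10:55483841-55484158 (129) and chr10:55547264-55549147 (109). Of all MLP vs. MLP-F regions, shared ones included, 36.8% scored 100 or more. The share among those in no other list was not computed.

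The 5 regions that the study annotated to the genes were not, at most loci, the highest-scoring there. The study chose its regions by false discovery rate and not by this score, and that rate was not used here. Whether the higher-scoring regions passed the study's threshold was not determined. At Pftk1 0 of 23 MLP vs. C regions scored higher than the annotated region, and at Myh10 1 of 9 did. At Prep 3 of 16 scored higher, and at Dym 5 of 17 for the one region and 6 for the other. Of the 5, those of Myh10 and Prep and the first of Dym overlapped an MLP-F vs. C region and no MLP vs. MLP-F region. That of Pftk1 was in all 3 lists, and the second of Dym was in MLP vs. C alone. Over the whole MLP vs. C list, 21.5% of regions overlapped MLP-F vs. C only, 1.11% both other lists and 39.1% neither. The 5 were selected by the study's threshold for MLP vs. C, so their pattern is a description and was not tested.

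The windows were set around the genes and also hold parts of their surroundings. Among named protein-coding genes on the later assembly GRCr8, Dym lies between C18h18orf32 and Smad7, an inhibitor of TGF-beta signalling. Prep lies between Prdm1, a transcriptional repressor of lymphocytes, and Popdc3, and Myh10 lies next to Ndel1. Which regions of the windows lie in those neighbours on rn4 was not determined. At the borders of the windows, the outermost MLP vs. C regions inside scored 54.6 to 197 and lay 14.7 to 129 kb from a border. The nearest outside scored 55.6 to 109 and lay 2.10 to 385 kb from it. For MLP vs. MLP-F the scores were 52.0 to 246 inside and 51.8 to 146 outside, and for MLP-F vs. C 52.4 to 465 and 56.0 to 216.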

How the data were processed

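The members and the choices were made with earlier results of these data known. Bowtie alignments to rn4 were compared between libraries by the authors with MACS. The submitters' processing notes name CASAVA and Bowtie. Versions are not given in the sources used. The deposited score is 10 times the −log10 of the MACS p, and no read counts, depths or fold enrichments were used here. Starts were converted to 1-based positions. Overlap meant at least 1 bp. Places are by score, with ties given the last place. Densities used the largest listed end as the length of each placed chromosome. The overlap search was tested on simulated data. Described one by one were the highest-scoring region of each list at each locus, regions overlapping or within 1 kb of a region of another list, and the outermost regions by range. A few further regions in a single list were named after their values were seen. Gene order came from a RefSeq table (GRCr8), which matched 4 of 4 symbols, Pftk1 as Cdk14. Lists of related genes were not looked up, since they need rn4 positions. Alternatives were a score of at least 100, wider windows, regions wholly inside, a reciprocal overlap of 50%, a gap of 1 kb and, added after the data were seen, leaving out Pftk1. Python 3.11.15, pandas 2.3.3 and SciPy 1.17.1 were used.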

Additional observations from a re-analysis of the deposited data

How the results depend on the processing

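With scores of at least 100, the loci held 23 MLP vs. C, 19 MLP vs. MLP-F and 11 MLP-F vs. C regions, and the median MLP vs. C score was 150.0. Of the 23, 52.2% overlapped an MLP vs. MLP-F region of any score, and 4.35% an MLP-F vs. C region of 100 or more. The shares of the whole list at these score limits were not computed, so these shares have no background beside them. With windows widened by 200 kb on each side, MLP vs. MLP-F had 75 regions, MLP-F vs. C had 77, and the MLP vs. C median was 81.3. Leaving out Pftk1, chosen after seeing the data, gave 42 MLP vs. C and 27 MLP-F vs. C regions and a median of 88.5. Counts with wider windows or without Pftk1 also change with the length covered, and densities were not computed for these settings. In the other 16 recalculations, counts stayed within 1.5 times the value reported, medians were equal and shares stayed within their interval. No paired analysis was possible because each group has 1 library. The depth of the libraries behind each score is not in the lists, and it limits which regions could be listed.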

Other observations

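The Pftk1 region with equal scores against C and MLP-F (79.8) is 1 of 773 among 14194 pairs of the MLP lists with equal scores. Pairs of overlapping regions of the MLP lists had the same ends in 14194 of 14194 cases, and pairs of MLP vs. C with MLP-F vs. C regions in 0 of 8175. At Dym, Myh10, Pftk1 and Prep these numbers were 22 of 22 and 0 of 21, as over the whole lists. The MLP lists share their first library, so the agreement of ends is not a trait of these loci.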
